A study of Homo sapiens with 6 samples.

Results

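The genes of the MHC class II alpha and beta chains were followed in LP-1 cells, a human multiple myeloma line, after a CRISPR guide against AURKA. They are HLA-DRA, HLA-DRB1, HLA-DRB5, HLA-DPA1, HLA-DPB1, HLA-DQA1, HLA-DQA2, HLA-DQB1, HLA-DMA and HLA-DMB, 10 of the 17579 genes in the deposited gene table, taken by symbol and read singly and as sums. They were chosen by their values in the comparison of AURKA-guide with control libraries, so that comparison is given for them as a description, with no test. RNA-seq was made on the BGISEQ-500 platform from 3 libraries of cells infected with a virus carrying a guide with no target (control replicates 1 to 3) and 3 of cells infected with a virus carrying one that targets AURKA, which encodes Aurora A, a kinase of mitosis (AURKA-guide replicates 1 to 3), which the labels call a knockout. All cells were grown with serum and differ, per the labels, only in the guide. The labels do not say whether a group is 1 clone or a pool of edited cells, nor whether the replicates were separate cultures, so the spread between libraries may be technical.

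MHC class II molecules are pairs of an alpha and a beta chain that show peptides from endocytosed and lysosomal proteins to CD4+ T cells. HLA-DR, HLA-DP and HLA-DQ reach the cell surface, while HLA-DM stays in endosomes and helps exchange the invariant chain fragment CLIP for a peptide. The genes lie together on chromosome 6 and are transcribed when the coactivator CIITA joins the factors RFX, CREB and NF-Y on the X and Y boxes of their promoters. B cells transcribe them at a high level, and the change to a plasma cell usually turns CIITA and the class II genes down, through the repressor PRDM1 (BLIMP1) among others.

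Some promoter elements recur in part of the chains, and stretches of 50 bases that end at the Y box are printed for 7 members. In these the RefSeq promoter (GRCh38.p14, 250 bases before to 50 after the start) held ATTGG, the core of the Y box, on the gene's strand. Capitals mark ATTGG and, where it was found, GNNACNGA, a loose form of the X box core, lying 15 to 30 bases before it.
HLA-DRB1: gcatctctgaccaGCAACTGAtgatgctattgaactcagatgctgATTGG
HLA-DRB5: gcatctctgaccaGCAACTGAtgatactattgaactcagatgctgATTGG
HLA-DQA1: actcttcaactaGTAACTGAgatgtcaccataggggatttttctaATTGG
HLA-DQA2: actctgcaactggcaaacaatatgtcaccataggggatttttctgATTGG
HLA-DQB1: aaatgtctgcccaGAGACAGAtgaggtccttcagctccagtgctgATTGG
HLA-DMA: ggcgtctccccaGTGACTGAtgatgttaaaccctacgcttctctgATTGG
HLA-DPB1: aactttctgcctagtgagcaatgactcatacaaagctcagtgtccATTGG
The stretches lie on chromosome 6, for example chr6:32589890-32589939 on the minus strand for HLA-DRB1 and chr6:32637293-32637342 on the plus strand for HLA-DQA1. Both letters and spacing were set after the promoters had been read, so the member counts below are a description. Of 35116 promoters in the table, 34.6% held ATTGG on either strand and 41.3% held GNNACNGA on either strand. The share with ATTGG on the gene's strand was not counted, so the 7 members with it have no like share beside them. The spaced pair lay on the gene's strand in 0.407% of all promoters. It did so in 5 of the 9 members in the table (HLA-DRB1, HLA-DRB5, HLA-DQA1, HLA-DQB1 and HLA-DMA). The spacing between the cores was 24 or 25 bases in those 5. HLA-DMB held ATTGG on the other strand alone, and neither HLA-DPA1 promoter held it. HLA-DRA was not in the table.

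The libraries held 17724174 to 18523594 expected counts. AURKA itself was at 189, 192 and 195 CPM (counts scaled to a common library size) in control replicates 1 to 3 and at 113, 119 and 113 CPM in AURKA-guide replicates 1 to 3, a log2 fold change of -0.74. The labels call LP-1 a B lymphoblast. Most of its plasma cell markers were high, with JCHAIN at a mean of 5332 CPM, XBP1 at 1468, IRF4 at 807 and PRDM1 at 226. SLAMF7, also on that list, was at 0.737 CPM. Of the B cell markers, MS4A1 (CD20) was at 0 in every library and PAX5 at 0.00908 CPM, while CR2 was at 6.05 CPM. The 9 plasma cell markers summed to 8469 to 9322 CPM in control and 8628 to 8845 CPM under the AURKA guide, with CD38 (log2 fold change 0.38) the 1 past the threshold; the 6 B cell markers in the table summed to 8.16 to 8.74 and 6.76 to 7.27 CPM. Of 8 markers of myeloid and dendritic cells, which also carry class II, 6 were in the table and summed to 42.6 to 47.1 CPM in control and 47.3 to 48.6 CPM under the AURKA guide. ITGAX made up 41.0 CPM of that on average, and the defining marker CD14 was at 0.0271 CPM. The part of these small shifts in the class II levels was not tested.

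The summed class II RNA was higher in every AURKA-guide library than in any control library. It was 1697, 1785 and 1639 CPM in control replicates 1 to 3 and 2134, 2146 and 2066 CPM in AURKA-guide replicates 1 to 3. The mean went from 1707 ± 73.5 to 2115 ± 43.4 CPM (SD, n = 3 each), 1.24-fold, a log2 difference of 0.31 (SE 0.0396). The gap between the highest control and the lowest AURKA-guide library, 280.2 CPM, was wider than the SD of either group. In bulk RNA, more cells that express class II and more class II RNA per cell cannot be told apart.

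**Figure D1:**
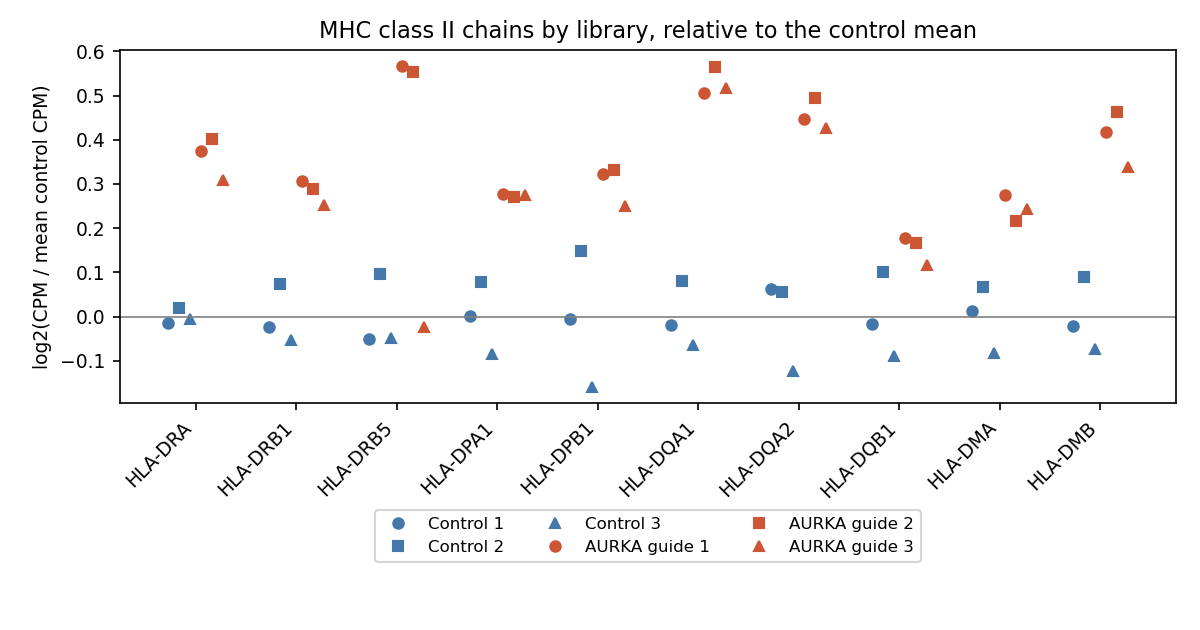
Each point is 1 library, as log2 of its CPM over the mean of the 3 control libraries (vertical axis) for each class II chain (horizontal axis), with control libraries in blue and AURKA-guide libraries in orange. For 9 of the 10 genes all orange points lie above all blue points; for HLA-DRB5, AURKA-guide replicate 3 lies among the controls.

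All 10 members passed the filter on low counts, and all 10 had a positive log2 fold change, with a median of 0.33 beside -9.41e-05 over the 13138 genes tested. In 9 of 10 the AURKA-guide libraries did not overlap the controls in CPM and lay above them, as did 10.5% of all tested genes. At an adjusted p of 0.05 (edgeR), 8 of 10 were past the threshold, all higher, where 2.03% of all tested genes were past it in either direction and 0.959% were past it and higher. That count was 3, 5 and 6 without AURKA-guide replicates 2, 1 and 3, where 54, 74 and 53 of all tested genes were past it and higher. Without control replicates 1, 2 and 3 it was 4, 9 and 8, where 55, 121 and 905 of all were. These settings tested 13278 to 13305 genes. By limma on log2(FPKM + 1) with no filter it was 5, where 36 of 17278 genes were past it and higher. With the replicate block and a correction for GC content it was 10, where 430 of 13138 were. Since the members were chosen from this comparison, nothing is read from these counts. The libraries kept much the same order across members: among controls, replicate 3 was the lowest for 8 and replicate 2 the highest for 9 of 10, and among AURKA-guide libraries replicate 3 was the lowest for 7. Without control replicate 3 the log2 difference of the sum was 0.28, and without control replicate 2 it was 0.34.

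HLA-DRA, the nearly invariant alpha chain of HLA-DR, was the most abundant member. Its level per length was 492 ± 3.48 FPKM in control and 635 ± 17.8 FPKM under the AURKA guide (SD, n = 3 each), and it ranked 149th of 17579 genes by mean control FPKM. In CPM it was at 618, 634 and 623 in control replicates 1 to 3 and at 810.2, 826 and 775 in AURKA-guide replicates 1 to 3, a log2 fold change of 0.36 (SE 0.0432). The controls had an SD of 7.91 CPM, and the lowest AURKA-guide library was 141 CPM above the highest control. It alone supplied 36.7% of the summed class II CPM in control and 38.0% under the AURKA guide, and the sum of the other 9 members still differed by 0.28 on the log2 scale (SE 0.0533).

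HLA-DRB1 encodes the main, highly polymorphic DR beta chain. It was at 131, 140.4 and 129 CPM in control replicates 1 to 3 and at 165, 163 and 159 CPM in AURKA-guide replicates 1 to 3, with a log2 fold change of 0.28 (SE 0.0510) and no overlap between the groups. HLA-DRB5, a second DR beta gene that only some haplotypes carry, was at 6.81, 7.54 and 6.82 CPM in control and at 10.4, 10.4 and 6.94 CPM under the AURKA guide. Its groups overlapped in CPM, because replicate 3 of the AURKA guide sat at the control level, and its log2 fold change of 0.39 (SE 0.142) was 0.56 without that library. In FPKM the groups just missed overlap, with that library at 5.93 and the highest control at 5.80. In GENCODE release 29, 8.42% of the windows of 50 bases along HLA-DRB5 also occur in HLA-DRB1, and the read length is not given in the sources used here, so the division of reads between DR beta genes is uncertain. The table also gave reads to HLA-DRB3 and HLA-DRB4, DR beta genes of other haplotypes that are not members. HLA-DRB3 had a mean of 37.5 ± 3.89 CPM in control and 43.1 ± 0.771 CPM under the AURKA guide, and HLA-DRB4 had 19.9 ± 1.77 and 23.6 ± 0.820 CPM (SD, n = 3 each). Summed over these 4 DR beta genes, which does not depend on how reads were split among them, the level was 196, 207 and 189.96 CPM in control and 243, 241 and 231 CPM under the AURKA guide, a log2 difference of 0.27 (SE 0.0433).

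The HLA-DP chains are the next most abundant pair. HLA-DPA1, the alpha chain, was at 399.9, 421 and 377 CPM in control replicates 1 to 3 and at 484, 481 and 483 CPM in AURKA-guide replicates 1 to 3, a log2 fold change of 0.27 (SE 0.0484). Its AURKA-guide libraries lay close together (SD 1.12 CPM), the controls further apart (SD 22.3 CPM), and the groups did not overlap. HLA-DPB1, the beta chain, was at 135, 151 and 122 CPM in control and at 170.0, 171 and 162 CPM under the AURKA guide. The gap between its groups, 10.98 CPM, was smaller than the spread of its controls (SD 14.5 CPM), and its log2 fold change was 0.30 (SE 0.0666), 0.23 without control replicate 3 and 0.38 without control replicate 2. Per length the alpha chain stood well above the beta chain, with 235 ± 11.9 FPKM for HLA-DPA1 and 33.1 ± 3.24 FPKM for HLA-DPB1 in control. The size of that contrast rests on the length the authors gave each gene. In CPM, which carries no length, the control means were 399 and 136.

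The 2 sides of HLA-DQ differed in size. HLA-DQA1, the alpha chain, had the largest log2 fold change of the members, 0.53 (SE 0.0594). It was at 44.7, 47.9 and 43.3 CPM in control replicates 1 to 3 and at 64.3, 67.0 and 64.9 CPM in AURKA-guide replicates 1 to 3, with no overlap. HLA-DQA2, a close copy whose product is known from few cell types, was at 40.0, 39.8 and 35.2 CPM in control and at 52.3, 54.0 and 51.5 CPM under the AURKA guide, a log2 fold change of 0.46 (SE 0.0654). Of its windows of 50 bases, 9.97% also occur in HLA-DQA1, and an allele of HLA-DQA1 that differs from the reference could be counted under either name, so both were also summed: 84.7, 87.7 and 78.5 CPM in control and 117, 121 and 116 CPM under the AURKA guide, a log2 difference of 0.50 (SE 0.0507). HLA-DQB1, the beta chain, had the smallest log2 fold change, 0.15 (SE 0.0538). It was at 204, 221 and 194 CPM in control and at 234, 232 and 224 CPM under the AURKA guide, with 2.44 CPM between the highest control and the lowest AURKA-guide library and a control SD of 13.8 CPM.

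HLA-DM has its own alpha and beta genes, which vary little between people. HLA-DMA was at 88.4, 91.9 and 82.8 CPM in control replicates 1 to 3 and at 106, 102 and 104 CPM in AURKA-guide replicates 1 to 3, a log2 fold change of 0.25 (SE 0.0547). HLA-DMB was at 28.2, 30.5 and 27.2 CPM in control and at 38.3, 39.5 and 36.2 CPM under the AURKA guide, a log2 fold change of 0.41 (SE 0.0682). The groups overlapped for neither gene. No window of 50 bases in HLA-DRA, HLA-DPA1, HLA-DMA or HLA-DMB occurs in another class II gene of GENCODE release 29, so the counts of these 4 rest on no stretch of that length shared with another chain in that annotation.

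**Figure D2:**
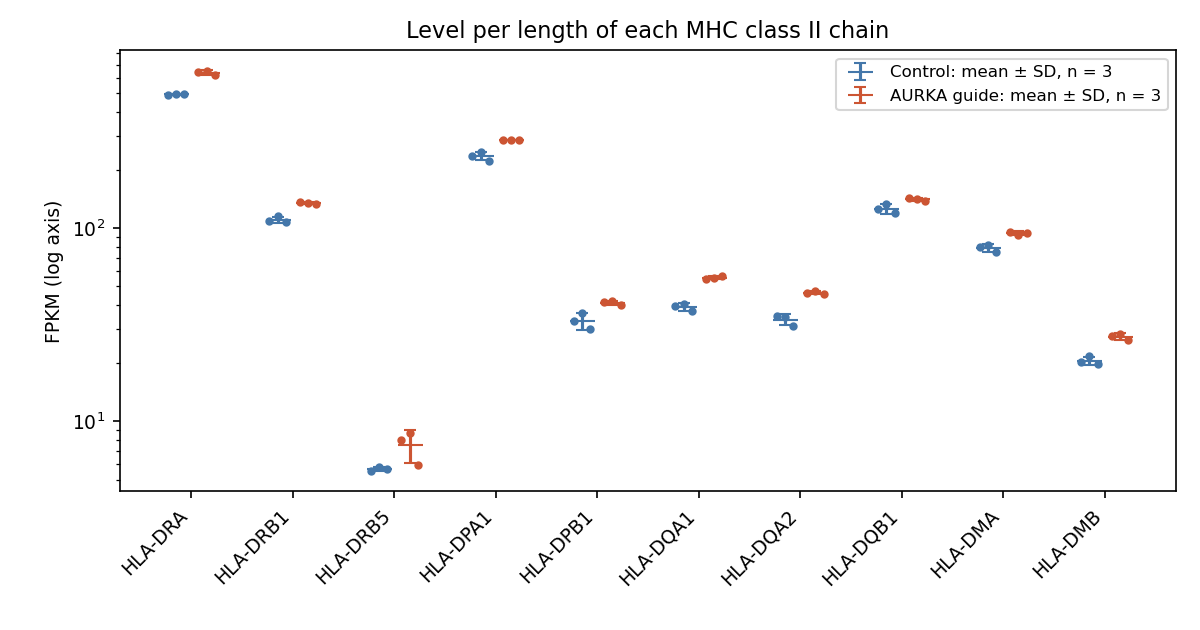
Level per length of each class II chain in FPKM on a log axis; dots are libraries, and bars are the mean ± SD of 3 control (blue) or 3 AURKA-guide (orange) libraries. In control, HLA-DRA is highest at 492 FPKM and HLA-DRB5 lowest at 5.66 FPKM.

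Per length, the order in control was HLA-DRA, HLA-DPA1 (235 FPKM), HLA-DQB1 (126 ± 7.26), HLA-DRB1 (110.2 ± 4.10), HLA-DMA (79.1 ± 3.49), HLA-DQA1 (39.2 ± 1.71), HLA-DQA2 (33.6 ± 2.20), HLA-DPB1 (33.1 ± 3.24), HLA-DMB (20.6 ± 1.01) and HLA-DRB5 (5.66 ± 0.140). Among neighbours in that order, only HLA-DQA2 and HLA-DPB1 differed by less than their spread. In AURKA-guide libraries the order was the same, with HLA-DQB1 at 141 and HLA-DRB1 at 135 FPKM. FPKM carries the length the authors gave each gene, and the place of HLA-DPB1 in this order rests on that length.

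The ratio of alpha to beta RNA within a library does not depend on library scaling. For HLA-DQ, the FPKM of HLA-DQA1 and HLA-DQA2 over that of HLA-DQB1 was 0.600, 0.562 and 0.573 in control replicates 1 to 3 and 0.703, 0.725 and 0.740 in AURKA-guide replicates 1 to 3, with no overlap. For HLA-DM, HLA-DMA over HLA-DMB was 3.92, 3.78 and 3.81 in control and 3.47, 3.23 and 3.59 under the AURKA guide, lower in each of the latter. HLA-DRA over HLA-DRB1 plus HLA-DRB5 was 4.25 ± 0.147 in control and 4.47 ± 0.0593 under the AURKA guide (SD, n = 3 each), with 0.0331 between the nearest libraries. That ratio leaves out HLA-DRB3 and HLA-DRB4. With them the DR beta sum was 165 FPKM in control and 199.9 under the AURKA guide, against 116 and 142 without, so the ratio would be lower. HLA-DPA1 over HLA-DPB1 was 7.13 ± 0.338 and 6.95 ± 0.207, and these groups overlapped. The size of this ratio rests on the length the authors gave each gene. As shares of the summed class II CPM, HLA-DQB1 went from 12.1% to 10.9% and HLA-DQA1 from 2.65% to 3.09% on average, while HLA-DRB1 (7.81% and 7.67%) and HLA-DPB1 (7.95% and 7.93%) stayed close to level.

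**Figure D3:**
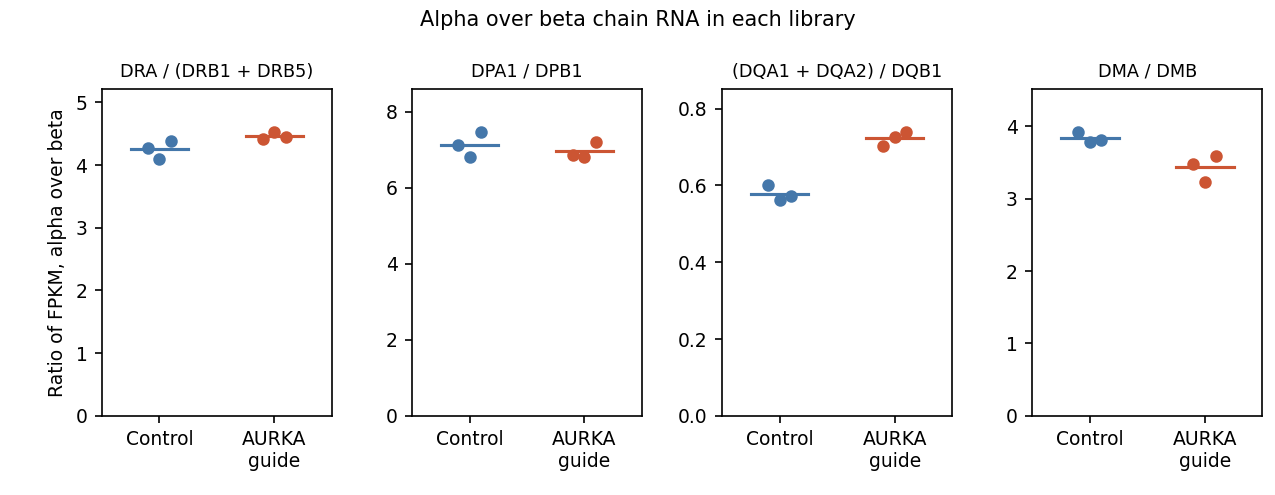
Ratio of alpha to beta chain FPKM in each library (dots) with the group mean (line), for HLA-DR, HLA-DP, HLA-DQ and HLA-DM. The HLA-DR ratio leaves out HLA-DRB3 and HLA-DRB4. Each vertical axis starts at 0. The HLA-DQ ratio is 0.578 on average in control and 0.723 under the AURKA guide, the HLA-DM ratio 3.84 and 3.43.

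The transcript table held 19 transcripts of the 10 genes. HLA-DRA, HLA-DPB1, HLA-DQA2, HLA-DMA and HLA-DMB each had 1 transcript. HLA-DQB1 was mostly 1 form, which held 91.8% of its reads in control and 91.3% under the AURKA guide, and the leading form of HLA-DRB1 held 92.1% and 93.8%. For HLA-DQA1 the leading form held 61.8% and 65.6%, with 57.8 to 63.8% in the control libraries and 62.3 to 69.1% in the AURKA-guide libraries, which overlap. The division between the 2 forms of HLA-DRB5 was not stable: the leading form held 57.0, 33.7 and 72.3% of the reads in control replicates 1 to 3 and 28.6, 85.7 and 89.5% in AURKA-guide replicates 1 to 3, at 126 to 191 expected counts for the gene. The second form of HLA-DPA1 likewise held between 5.54% (control replicate 2) and 24.9% (AURKA-guide replicate 3), so its forms were read only as a sum.

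The other genes of the pathway lie outside the members, but their lists were also chosen with earlier results of these data known. Among them the coactivator CIITA and the HLA-DO chain HLA-DOA rose, as did the protease gene CTSB. CIITA, the switch of class II transcription, was at 90.1, 83.3 and 73.1 CPM in control replicates 1 to 3 and at 110.1, 101 and 106 CPM in AURKA-guide replicates 1 to 3, with no overlap. Its log2 fold change was 0.36 (SE 0.0693), past the threshold at an edgeR adjusted p of 0.0113, and the adjusted p was 0.0599, 0.0513 and 0.0811 without AURKA-guide replicates 1, 2 and 3. Of 12 regulators tested with all 6 libraries, CIITA alone was past the threshold, and the list had a median of 0.03. The RFX subunits RFXANK and RFX5, parts of the complex on the X box, had log2 fold changes of -0.16 (SE 0.0727; edgeR adjusted p = 0.280) and 0.09 (SE 0.0438; adjusted p = 0.347). Without control replicate 3, RFXANK was at -0.24 and past the threshold as lower (edgeR adjusted p = 0.0109), and without control replicate 2 it was at -0.10. Calls here and below are to be set beside those over all tested genes. With all 6 libraries, 267 of 13138 genes were past the threshold (2.03%). Without control replicate 3, 2034 of 13283 were, and without control replicate 2, 234 of 13305. With the GC correction 789 of 13138 were, and with the replicate block and GC correction 881 of 13138.

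Of 12 chaperones, proteases and ubiquitin ligases of the class II route, 2 rose and none fell with all 6 libraries (median 0.05). Of all tested genes, 0.959% were past the threshold and higher. HLA-DOA, the alpha chain of the HLA-DM inhibitor HLA-DO, was at 52.7, 59.2 and 55.7 CPM in control and at 66.7, 70.6 and 70.7 CPM under the AURKA guide. It rose by 0.31 (SE 0.0603, adjusted p = 0.0125; 0.135, 0.104 and 0.106 without control replicate 1, AURKA-guide replicate 2 and AURKA-guide replicate 3). The lysosomal protease CTSB rose by 0.22 (SE 0.0477, adjusted p = 0.0258), a call lost without control replicate 1 (0.152) and without AURKA-guide replicates 1 (0.101), 2 (0.158) or 3 (0.150). The thiol reductase IFI30 was at -0.19 (SE 0.0617, adjusted p = 0.152), and at -0.25 and past the threshold without control replicate 3 (edgeR adjusted p = 0.00305). CD74, the invariant chain that accompanies every class II pair, is given for its role: it was at 2692, 2935 and 2389 CPM in control and at 3007, 2920 and 2827 CPM under the AURKA guide, groups that overlap, with a log2 fold change of 0.13 (SE 0.0596, adjusted p = 0.312). Its value turned on the control libraries: it was 0.05 without control replicate 3, and 0.20 and past the threshold without control replicate 2 (edgeR adjusted p = 0.0273). With the GC correction CD74 was at 0.19 and past it (edgeR adjusted p = 9.10e-04). HLA-DOB, the beta chain of HLA-DO, was at 0.03 (SE 0.140). The DR beta genes HLA-DRB3 and HLA-DRB4 had log2 fold changes of 0.20 (SE 0.0741; edgeR adjusted p = 0.1999) and 0.25 (SE 0.0792; adjusted p = 0.144), with neither past the threshold. Without control replicate 3, HLA-DRB3 was at 0.11, and HLA-DRB4 was at 0.31 and past it (edgeR adjusted p = 0.0135). HLA-DRB4 was also past it with the GC correction (adjusted p = 0.0379), and HLA-DRB3 with the replicate block and GC correction (adjusted p = 0.0276).

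Of 8 tested genes of interferon gamma signalling, which can induce CIITA, none rose with all 6 libraries and no GC correction (median 0.09). The kinase gene JAK1 had a log2 fold change of 0.19 (SE 0.0577, edgeR adjusted p = 0.118) and the factor IRF1 one of 0.22 (SE 0.0672, adjusted p = 0.119). Both were past the threshold, and higher, without control replicate 3 (edgeR adjusted p = 0.00457 for JAK1 and 0.0489 for IRF1) and with the GC correction (0.0154 and 0.0104). In those settings 2034 of 13283 and 789 of 13138 tested genes were past it in either direction. With all 6 libraries and no GC correction, none of 13 class I and peptide loading genes was past the threshold by edgeR, DESeq2 or limma, 1 had an unadjusted p under 0.05, and the median was -0.0059. The peptide transporter subunits TAP1 and TAP2 were at -0.18 (SE 0.0590, adjusted p = 0.149) and -0.06 (SE 0.0482), and HLA-E at 0.07 (SE 0.0437). TAP1 was past the threshold, and lower, without control replicate 3 (-0.24, edgeR adjusted p = 0.00240) and with the GC correction (-0.13, adjusted p = 0.0379). With all 6 libraries and no GC correction, none of 5 tested B cell and plasma cell factors was past it by any of the 3 tools, again with 1 at an unadjusted p under 0.05 (median -0.03): IRF4 was at -0.12 (SE 0.0432, edgeR adjusted p = 0.201, and 0.004996 with the GC correction), PRDM1, the repressor of CIITA, at -0.06 (SE 0.0449) and BACH2 at 0.07 (SE 0.0608).

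**Figure D4:**
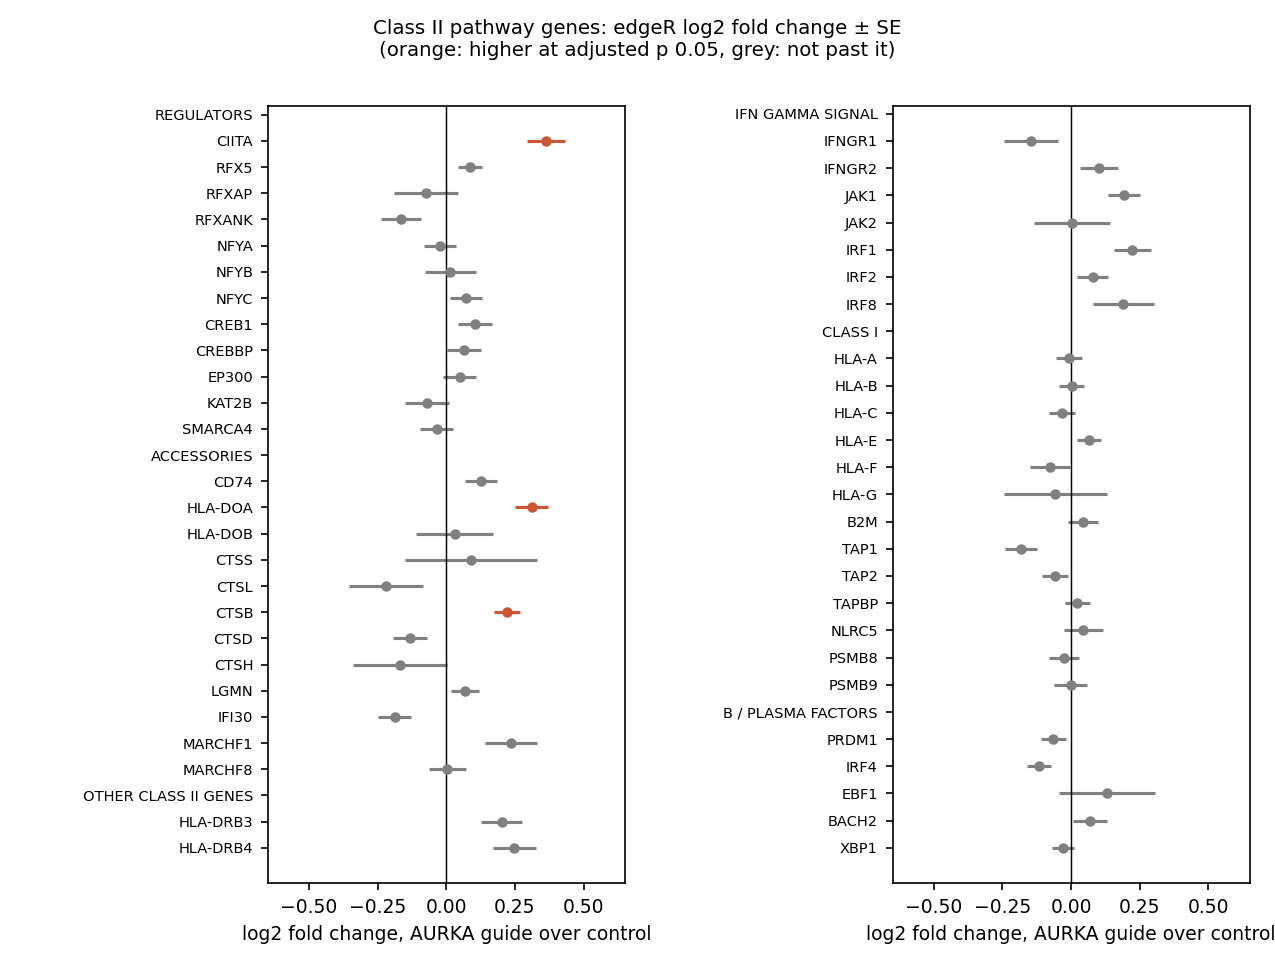
Log2 fold change of AURKA guide over control (horizontal axis, points) with its SE (bars) from edgeR for the pathway genes reported here, by list, members left out. CIITA, HLA-DOA and CTSB are past an adjusted p of 0.05 and higher (orange), and those in grey are not past it.

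Over the 6 libraries, the genes whose log2 CPM followed the summed class II level most closely, among 10241 with a mean of at least 5 CPM, were the histone gene HIST1H2BK (Pearson r = 0.997), the lens crystallin CRYBB1 (0.996), THADA (0.996), the transcriptional inhibitor ID2 (0.995) and an unnamed gene with ID 105369230 (0.990). These values describe 6 libraries that form 2 groups, so any gene that differs between the groups in the same way scores high. On the same scale HLA-DOA stood at 0.945, CIITA at 0.908 and CD74 at 0.762.

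The authors' deposited table of transcripts also holds a comparison of a guide against NSD2, the histone methyltransferase named in the series title, with control; its libraries were not analysed here, and both comparisons share the control libraries. Of 13 NSD2 transcripts with a q-value there, 1 was past 0.05 under the NSD2 guide in the authors' deposited table, with a fitted log2 fold change of -10.33 (q = 4.04e-11), which is no measured bound. The members were chosen on the AURKA guide, but with the same controls. In the authors' deposited table, 7 of 19 member transcripts, 1 each of 7 genes, were past a q of 0.05 and higher under it, where 1.01% of all its 78311 transcripts were. Under the AURKA guide there were 7 of 19 in the authors' deposited table as well, where 0.776% of all transcripts were past it and higher.

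Side by side in the authors' deposited table, HLA-DRA had a log2 fold change of 0.36 under the AURKA guide and 0.39 under the NSD2 guide (q = 1.32e-31). The leading HLA-DQA1 transcript was at 0.62 and 0.68 (q = 1.38e-06 in the authors' deposited table under the NSD2 guide), and HLA-DQA2 at 0.46 and 0.49 (q = 0.00140). For HLA-DPB1 the authors' deposited table gives 0.30 and 0.43 (q = 2.90e-04), for the leading HLA-DRB1 transcript 0.31 and 0.27 (q = 1.73e-04), and for HLA-DMB 0.40 and 0.48 (q = 0.0123). HLA-DMA was at 0.24 and 0.25 in the authors' deposited table, past a q of 0.05 under the AURKA guide (0.0320) and not under the NSD2 guide (0.0749), a difference between guides that was not tested. The leading HLA-DQB1 transcript was at 0.14 (q = 0.536) and 0.27 (q = 0.00651) in the authors' deposited table, and HLA-DOA, outside the members, at 0.31 and 0.45 (q = 1.12e-05 under the NSD2 guide). No HLA-DRB5 or HLA-DPA1 transcript was past a q of 0.05 under either guide. Since the members were chosen on the AURKA guide, nothing is read from their q-values under that guide. The NSD2-guide comparison shares the control libraries, so its counts and q-values for the members are not independent of that choice. They are given as a description.

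**Figure D5:**
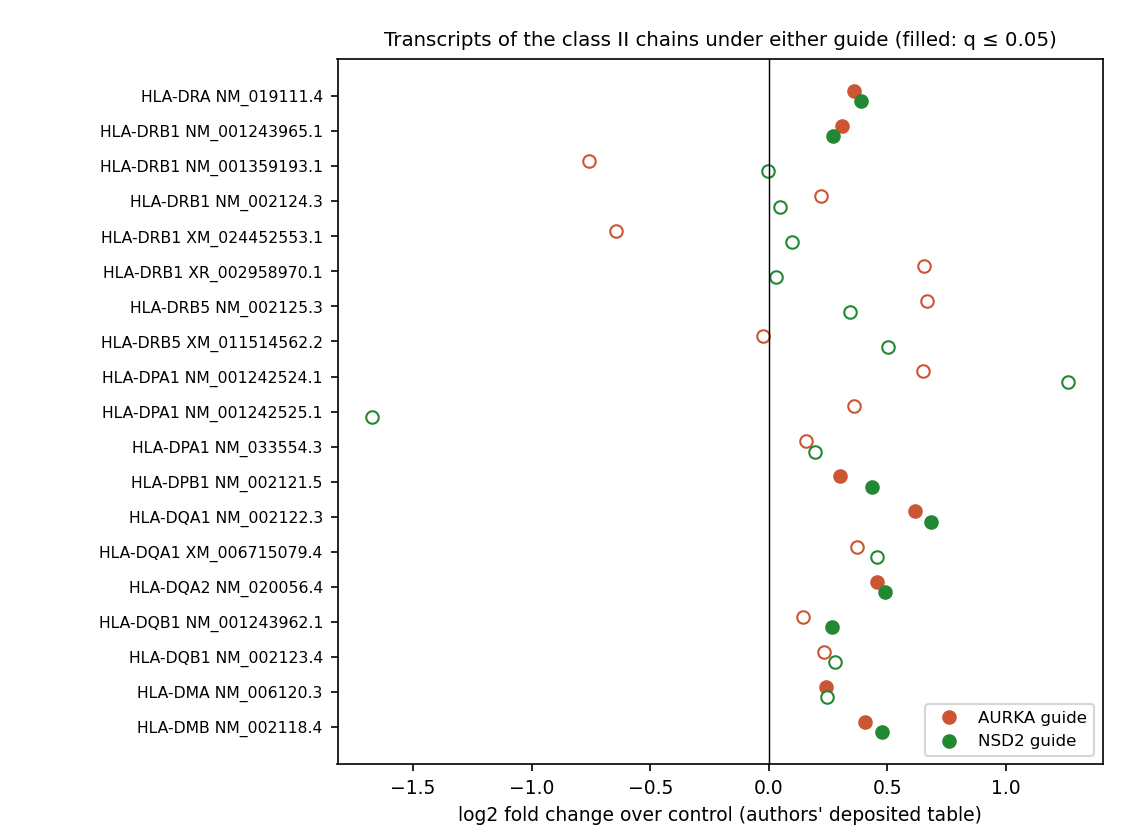
Log2 fold change over control in the authors' deposited table (horizontal axis) for the 19 transcripts of the class II chains, under the AURKA guide (orange) and the NSD2 guide (green); filled points have a q of at most 0.05. The 7 filled green points lie between 0.27 and 0.68, and the points far from 0 on either side are open.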

How the data were processed

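The authors deposited expected counts per gene and per transcript, of which 44.8% of the gene values were not whole. FPKM values, scaled by the authors for length and depth as the name says per the file headers, stand beside them. The submitters' processing notes name the tools RSEM, Bowtie2 and BWA and the build hg19. Versions, roles, strandedness and read length were not stated there. The authors' deposited comparisons give log2 fold changes and DESeq2 q-values, per the file headers.

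Expected counts were rounded and tested across all genes with edgeR 4.0.16 in R 4.3.3 (filterByExpr, TMM, quasi-likelihood F test, Benjamini-Hochberg adjustment, threshold 0.05), with the SE from the F statistic. CPM uses the TMM-scaled library size. The log2 difference of a sum is that of the group means of log2 CPM. The script was tested on simulated data. Sequences are RefSeq's (GRCh38.p14) and carry no coordinate into the authors' build; windows and GC content came from GENCODE 29.

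The members, lists and alternatives were chosen with earlier results of these data known. Named genes are the members, pathway genes past the threshold, the 3 with the smallest p per list at 5 CPM or more, and the 5 closest in pattern; CD74, HLA-DOB and the markers are named for their role. Alternatives were a replicate block, libraries left out, other scaling, filters, DESeq2 1.42.0, limma 3.58.1 on log2(FPKM + 1) or log2(FPKM + 0.1), a GC correction (spline with 5 degrees of freedom) and other sums, of which 2 (with HLA-DRB3 and HLA-DRB4) were added after seeing the data. A result for 1 of the 4 pathway genes past the threshold is not reported here; the list counts and medians include it.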

Additional observations from a re-analysis of the deposited data

How the results depend on the processing

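The log2 difference of the summed class II level stayed positive in each of the 26 alternatives. Its shift from the main value of 0.31 was smaller than the SD within groups, 0.0486, in each of them. The log2 difference ran from 0.26 (HLA-DQ chains alone) to 0.35 (HLA-DR chains alone), and from 0.28 to 0.34 with 1 library left out. The replicate block and the filter on FPKM do not enter this difference, so alternatives that change only these could not move it. The median over the members ranged from 0.29 to 0.38 with 1 library left out, and each member kept a positive log2 fold change in each alternative that tested it; HLA-DRB5 was below the filter of a mean of 10 CPM. The counts of calls moved more. Of 13138 tested genes, 267 were past the threshold, against 789 with the GC correction and 881 with the replicate block and GC correction. With the replicate block alone 385 were, and by limma on log2(FPKM + 1) with no filter 67 of 17278. With 1 library left out, 13278 to 13305 genes were tested and 98 to 2034 were past it. The number was 98 without AURKA-guide replicate 3, 101 without 2 and 154 without 1. It was 111 without control replicate 1 and 2034 of 13283 without control replicate 3. Of 52 tested pathway genes, 4 were past it, against 10 with the GC correction and 12 with the replicate block and GC correction. With the block alone 4 were. By limma with no filter 0 of 57 were, with 14 at an unadjusted p under 0.05. With 1 library left out, 0 to 11 of 52 were past it. By edgeR 0 were without AURKA-guide replicate 2, where 10 had an unadjusted p under 0.05. The number was 1 without AURKA-guide replicate 3 and 2 without 1. It was 2 without control replicate 1 and 11 without control replicate 3. With the GC correction CD74, HLA-DRB4, JAK1, IRF1, TAP1 and IRF4 joined the 4. The cause was not tested. Same-numbered libraries correlated at 0.0897, -0.119 and 0.211 in their deviations from the group means, and not every library correlated best with its own number, so the numbers were not taken to pair samples. At 126 to 191 reads, HLA-DRB5 is the member that depth limits most.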
